A study of Caenorhabditis elegans with 4 samples.

Results

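The regions described here are the CBP-1 peaks of chromosome III of Caenorhabditis elegans, that is, every region on that chromosome called as enriched for the protein in embryos. They were chosen by chromosome alone. Chromosome III held 1013 of the 6300 peaks of the series-wide list. It held 509 of 3122 peaks in the list of ChIP replicate 1 and 364 of 2004 in that of ChIP replicate 2. All animals were of the wild-type N2 strain, from a population of males and hermaphrodites kept at 20 °C, and were harvested as mixed-stage embryos. Chromatin was precipitated with SDQ3582, an affinity-purified rabbit polyclonal antibody to CBP-1, and the recovered DNA was sequenced (ChIP-seq). The series has 2 ChIP samples and 2 inputs, and the inputs were not analysed here. Whole embryos of many stages were pooled, so a peak cannot be assigned to a stage or a cell type. The labels do not tell whether the ChIP samples stem from different cultures, and what separates them may be technical. Positions are in WormBase WS220, and no annotation of that build was used, so the peaks carry positions and no gene names.

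CBP-1 is the worm protein of the CBP/p300 family. These histone acetyltransferases do not read a DNA sequence themselves. They are brought to promoters and enhancers by transcription factors, and the acetyl groups they add to histone tails mark active regulatory DNA. In the worm CBP-1 is required for embryonic cells to differentiate. The gene cbp-1 itself lies on chromosome III in the RefSeq gene table (assembly WBcel235), as do the worm's Hox genes of the main cluster. Worm chromosomes have no single centromere, and "arm" stands for an outer part of the chromosome. Autosome centres are rich in conserved genes and recombine little, whereas the arms recombine more and hold more repeats and silenced chromatin.

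The peaks of chromosome III were short and far apart. In the series-wide list they had a median width of 259 bp (25th to 75th percentile 196 to 362 bp), with a range of 146 to 4843 bp. They covered 332161 bp, or 2.41% of the chromosome. Its length was taken as 13783731 bp, the furthest peak end over the lists, and was not checked against the assembly. The median distance between neighbouring peaks was 7674 bp, and 160 of 1012 neighbours lay within 1000 bp of each other. Replicate 1 peaks were wider, with a median of 426 bp, and covered 1.87% of the chromosome. Replicate 2 peaks had a median width of 155.5 bp and covered 0.621%. The authors' score for each peak has no stated scale and was used to rank peaks within a list. Its median on chromosome III was 9.38 in the series-wide list (range 1.37 to 231.9), 163.3 in replicate 1 (50.07 to 3100) and 84.9 in replicate 2 (50.05 to 1440). No list gives read counts, so the depth behind a peak is unknown. The intervals below for shares and for peaks per Mb cover the counting of peaks only. Those for density ratios also take in the spread between bins. None covers the spread between ChIP samples.

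Widths and scores of chromosome III resembled those of the other chromosomes. The median width of series-wide peaks was 257 bp on the autosomes I, II, IV and V together, and from 251 bp on V to 265 bp on II. The median score was 8.81 on those 4 autosomes and 9.38 on III, the highest of the 6 nuclear chromosomes. The 75th percentile of the score was 21.2 on III and 18.2 on the other autosomes. Replicate 1 had the same order, with a median score of 163.3 on III and 154.6 on the other autosomes. In replicate 2 the medians were 84.9 and 85.6, so that list did not place III higher. None of these medians was tested.

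Chromosome III was among the most densely occupied chromosomes. It carried 73.5 series-wide peaks per Mb, against 59.2 on the other autosomes together. The ratio was 1.24 (95% interval 1.10 to 1.40; two-sided quasi-Poisson regression over 250 kb bins, n = 343 bins, adjusted p = 0.00276 over 16 tests). Both replicates gave a ratio above 1. Over the same bins (n = 343) it was 1.26 in replicate 1 (1.09 to 1.46, adjusted p = 0.00683) and 1.40 in replicate 2 (1.18 to 1.66, adjusted p = 0.00204). Series-wide peaks that overlapped a peak of each replicate, 21.8% of them over all nuclear chromosomes, gave a ratio of 1.37 (1.15 to 1.63, n = 343 bins, adjusted p = 0.00276). The replicate lists and the series-wide list share sites and are not separate evidence.

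The excess rested on some of the chromosomes compared. Set against each chromosome alone, III had 1.59 times the series-wide density of V (1.37 to 1.85, n = 144 bins, adjusted p = 1.46e-07 over 15 such tests) and 1.27 times that of IV (1.12 to 1.44, n = 130 bins, adjusted p = 0.000715). Against II the ratio was 1.18 (1.00 to 1.38, n = 122 bins, adjusted p = 0.0724), and against I it was 0.972 (0.860 to 1.10, n = 121 bins, adjusted p = 0.689). Against chromosome X (n = 131 bins) it was 1.08 (0.961 to 1.22, adjusted p = 0.261), and in replicate 1 it was 1.10 (0.947 to 1.27, adjusted p = 0.269). In replicate 2, III exceeded X by 1.41 times (1.20 to 1.66, n = 131 bins, adjusted p = 0.000161) and II by 1.33 times (1.08 to 1.64, n = 122 bins, adjusted p = 0.0159). Chromosome III and chromosome I did not differ past the threshold in any of the 3 lists, with intervals that allow ratios from 0.823 to 1.33.

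**Figure D1:**
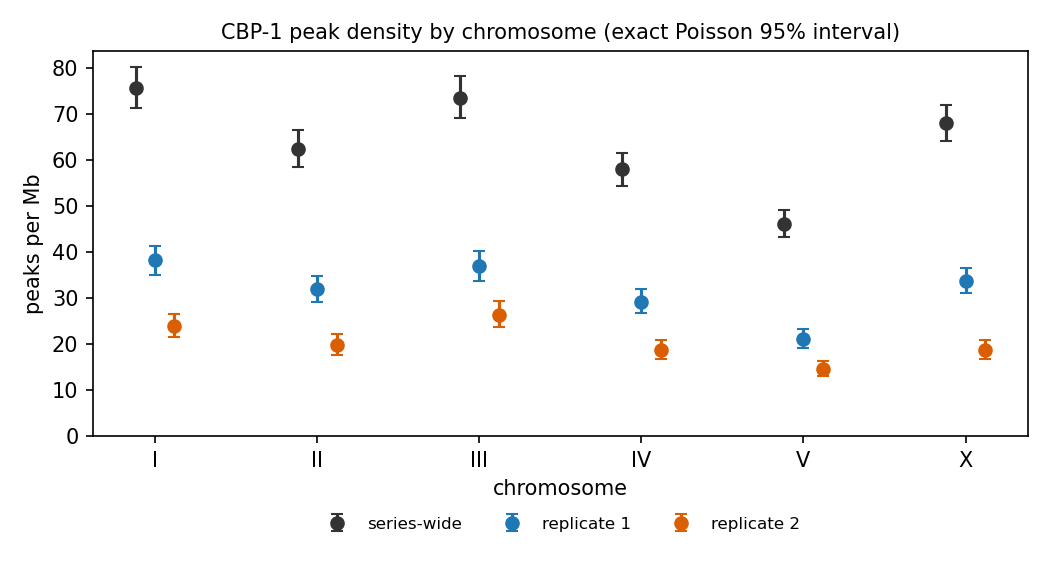
Peaks per Mb on each nuclear chromosome (y axis) in the series-wide list and both replicate lists, with exact Poisson 95% intervals. Chromosome III stands beside chromosome I in the series-wide list (73.5 and 75.6 per Mb) and highest in replicate 2 (26.4 per Mb), and chromosome V is lowest in all 3 lists. The intervals take peaks as independent and may be too narrow.

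The share of III among the strongest peaks was above its share of all peaks in some lists. Of the 100 series-wide peaks of highest score, 24 lay on III (24.0%, Wilson 95% interval 16.7 to 33.2), where III held 16.1% of all nuclear peaks. In replicate 1 it was 26 of 100 (18.4 to 35.4), beside 16.3% of the list. In replicate 2 it was 20 of 100 (13.3 to 28.9), beside 18.3%, an interval that takes in the chromosome's own share. Among the 500 strongest the shares were 18.6%, 16.2% and 18.0%.

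Chromosome III was then divided into 3 equal parts. The left arm, positions 1 to 4594577, held 294 series-wide peaks, the centre 377 and the right arm, from 9189155, 342. These are 64.0 (exact Poisson 95% interval 56.9 to 71.7), 82.1 (74.0 to 90.8) and 74.4 (66.8 to 82.8) peaks per Mb. Such intervals take peaks as independent. Series-wide counts in 250 kb bins varied more than that, with a variance 2.22 times the mean, so the intervals may be too narrow. Replicate 1 had 150, 205 and 154 peaks in the same parts, and replicate 2 had 121, 124 and 119. The centre was thus the fullest part in all 3 lists, and in replicate 2 the parts were almost equal. These are counts of peaks, and the replicate 1 peaks that met 4 or more replicate 2 peaks lay in the left arm and centre. The centre also had the most sequence under peaks in the series-wide list, 28.2 kb per Mb against 21.9 and 22.1 in the left and right arms. In replicate 2 the left arm had most, with 7.14 kb per Mb, against 6.79 in the centre and 4.69 in the right arm.

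The difference between centre and arms did not pass the test. The ratio of densities was 1.19 in the series-wide list (0.977 to 1.44; quasi-Poisson regression, n = 58 bins, adjusted p = 0.221). Over the same 58 bins (n = 58) it was 1.35 in replicate 1 (1.05 to 1.73, adjusted p = 0.0643) and 1.03 in replicate 2 (0.807 to 1.32, adjusted p = 0.947). For sites with support from each replicate it was 1.22 (0.934 to 1.59, n = 58 bins, adjusted p = 0.325). The other 4 autosomes together had a ratio of 1.34 in the series-wide list, and from 1.11 on IV to 1.61 on V. The gradient on III was 0.884 times that on the other autosomes (0.697 to 1.12, n = 343 bins, adjusted p = 0.556), so a difference from them was not detected. The right arm had 1.16 times the density of the left (0.898 to 1.51, n = 39 bins, adjusted p = 0.489), and the ratio was 1.03 in replicate 1 and 0.983 in replicate 2.

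The call depended on how the chromosome was divided, and the emptiest part of the chromosome lay in the first 25% of its length. With the centre from 25% to 75%, the ratio of centre to arms was 1.37 (1.15 to 1.63, n = 58 bins, p = 0.000657, not adjusted). That of right to left arm was 1.43 (1.10 to 1.86, n = 29 bins, p = 0.00852, not adjusted). In 4 equal segments from left to right, the series-wide list held 176, 293, 292 and 252 peaks, or 51.1, 85.0, 84.7 and 73.1 per Mb. Replicate 1 held 81, 158, 160 and 110 peaks. Replicate 2 held 84, 97, 89 and 94, so the low first segment and the fuller middle were faint in its counts of peaks. Of its 84 first-segment peaks, 4, 6 and 5 overlapped single broad replicate 1 peaks, as did 4 of the 97 in the second. Counts of replicate 2 peaks thus exceed counts of sites, most of all in the first segment among these broad regions. The division into 4 was described after the values had been seen.

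**Figure D2:**
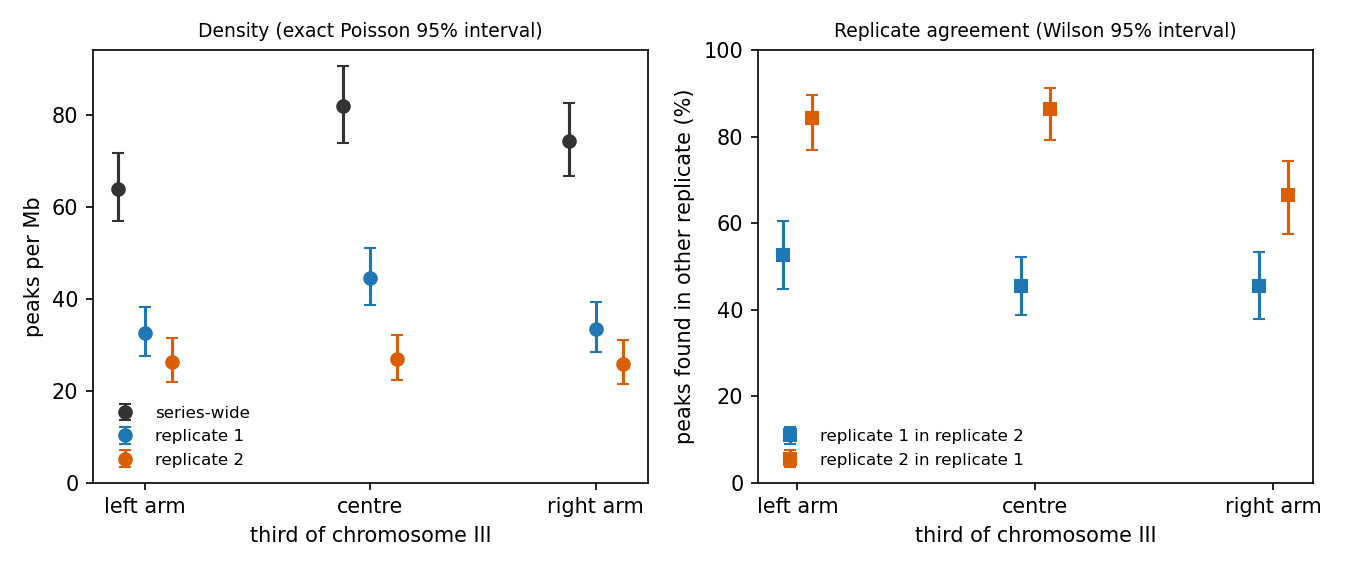
Left panel, peaks per Mb in the left arm, centre and right arm of chromosome III for the 3 lists, with exact Poisson 95% intervals; right panel, the percent of each replicate's peaks that overlapped a peak of the other replicate, with Wilson 95% intervals. The centre is highest in the series-wide list and replicate 1, replicate 2 is level, and the share of replicate 2 peaks found in replicate 1 is lowest in the right arm, at 66.4%. The Poisson intervals take peaks as independent and may be too narrow.

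Counts in 250 kb bins showed the same picture in finer steps. The 55 full bins held between 8 and 34 series-wide peaks, with a median of 18. Bins of the left arm ran from 8 to 29, those of the centre from 12 to 33 and those of the right arm from 9 to 34, so the ranges overlapped over most of their length. Replicate 1 had 2 to 20 peaks per bin and replicate 2 had 2 to 16. The variance of the counts was 2.22 times their mean in the series-wide list, 2.01 times in replicate 1 and 1.28 times in replicate 2. Peaks in both replicates numbered 0 to 10 per bin, with a variance 1.07 times the mean. Lists with fewer peaks come closer to 1 in this measure, so it does not rank the lists by evenness. Across the 55 bins the counts of replicate 1 and replicate 2 went together (r by Pearson 0.551, rho by Spearman 0.567, and r 0.533 once the 2 bins most distant from the replicate 1 median were left out). These bins are neighbours on a single chromosome and are not independent, so the correlation is a description. Mappability and base composition were not measured, and their part in it was not tested.

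The fullest bins lay in all 3 parts of the chromosome. The first was in the right arm, at 9500001 to 9750000, with 34 series-wide, 14 replicate 1 and 8 replicate 2 peaks. Of its 34 peaks, 19 were in neither replicate list (45.2% of all nuclear series-wide peaks were in neither), and no peak of the bin scored above 43.65. The next, at 8750001 to 9000000 in the centre, had 33, 20 and 12 peaks and 13609 bp under peaks. Of its 33 series-wide peaks, 10 were in both replicates, beside 21.8% of all nuclear series-wide peaks. This bin led the chromosome in replicate 1, in the number of sites found in both replicates and in sequence covered. Bins at 4250001 to 4500000 (29, 14 and 12 peaks), 5500001 to 5750000 (28, 16 and 8) and 13500001 to 13750000 (27, 11 and 13) completed the first 5. Of the 55 full bins of III, 10 had 25 or more series-wide peaks, as had 10 of 60 on I and 1 of 83 on V.

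Of the 6 emptiest bins, 5 lay near each other in the left arm. Positions 2000001 to 2250000 held 8 series-wide peaks, and 9 were found in each of the bins that start at 1500001, 1750001, 2500001 and 2750001. The other bin with 9 was in the right arm, at 11500001 to 11750000, with 2 replicate 1 peaks and 3 replicate 2 peaks. Of its 9 series-wide peaks 0 were in both replicates, beside 21.8% of all nuclear series-wide peaks, a count too small to compare. The 12 neighbouring bins from 250001 to 3250000 were all below the median of 18 series-wide peaks, with 8 to 16 each, and made the longest such run on III. They held 142 series-wide peaks, 47.3 per Mb (39.9 to 55.8), and 65 of replicate 1, 21.7 per Mb (16.7 to 27.6). Replicate 2 had 68 peaks there, 22.7 per Mb (17.6 to 28.7), and 4 and 6 of these lay inside 2 single broad peaks of replicate 1. This region was picked for its low counts. The sparse bins were not all weak: the bin at 1750001 to 2000000 had the highest median score of all bins, 35.91. In that bin 6 of 9 series-wide peaks were in both replicates, beside 21.8% of all nuclear series-wide peaks.

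**Figure D3:**
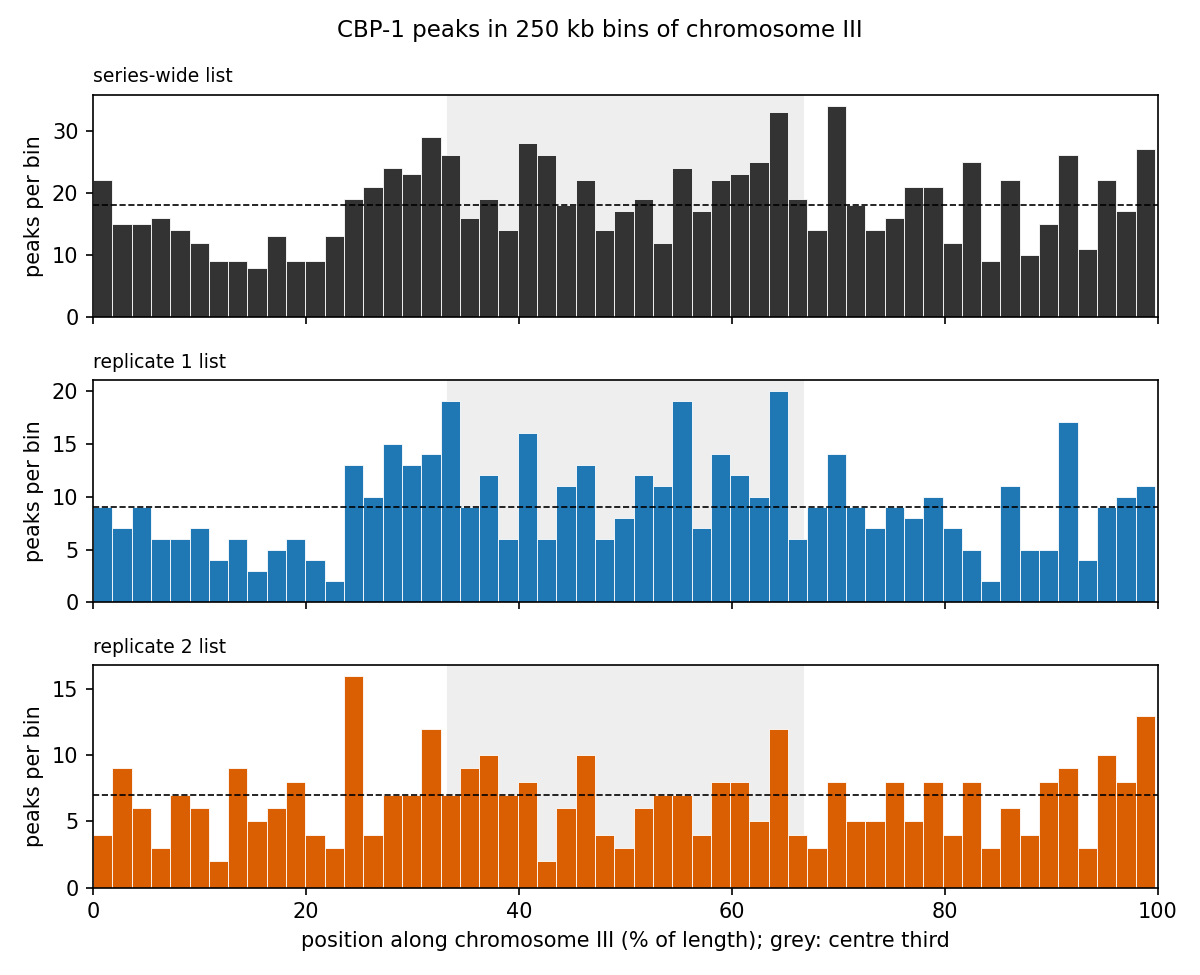
Number of peaks in each full 250 kb bin of chromosome III (y axis) against position as percent of length, in the series-wide, replicate 1 and replicate 2 lists; dashed lines are the medians of 18, 9 and 7 peaks and the grey band is the centre. Low bars fill most of the stretch before the 25% mark in the series-wide list and replicate 1, and the replicate 2 bars show it far less. The replicate 2 bars count each peak, also where several lie inside a single broad replicate 1 peak.

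Peaks seldom formed long runs on chromosome III. With neighbours joined across gaps of up to 2000 bp, 7 stretches of 5 or more series-wide peaks were found, with 46 peaks in all, 4.54% of the chromosome's peaks. Chromosome II had 16 such stretches with 12.6% of its peaks, and I had 5 with 2.46%. Of the 7 stretches on III, 6 lay in the right arm, 1 in the centre and 0 in the left arm. The number depends on the gap: 4 stretches remained at 1000 bp and 17 were counted at 5000 bp.

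The stretch with most peaks ran from 13061035 to 13072412 and held 9 series-wide peaks in 11378 bp. It had 6 peaks in each replicate list, and 5 of its 9 series-wide peaks were in both, beside 21.8% of all nuclear series-wide peaks. It also holds a leading peak of the chromosome (score 139.8). A stretch of 8 peaks at 9697292 to 9705324 had less support. Its scores had a median of 5.21, and 6 of the 8 were in neither replicate, beside 45.2% of all nuclear series-wide peaks. With so few peaks each, these counts are descriptions. The other stretch of 8 peaks, at 12612303 to 12617200, covered 3613 of 4898 bp. Replicate 1 had 7 peaks there and replicate 2 had 1. All 8 series-wide peaks were in at least 1 replicate list, where 45.2% of all nuclear series-wide peaks were in neither. Stretches of 6 peaks at 11933284 to 11940243 and 5 peaks at 5937917 to 5942350 followed, with 5 and 2 replicate 1 peaks and 1 and 0 replicate 2 peaks.

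At the other extreme, the longest gap between series-wide peaks was 117044 bp, from 1707526 to 1824569, and neither replicate had a peak inside it. The next was 115622 bp, from 1303059 to 1418680, which 2 replicate 1 peaks and 1 replicate 2 peak touched. The third was 91397 bp in the right arm, from 11565808 to 11657204, with 1 replicate 2 peak. Gaps above 50000 bp numbered 17 in the left arm, 8 in the centre and 13 in the right arm.

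Each list began at the first base of the chromosome. The first peak was at 1 to 229 in the series-wide list (score 30.97), 1 to 223 in replicate 1 (255.6) and 1 to 170 in replicate 2 (209.8), so the left end was called in both replicates. The right end was not: the last series-wide peak, 13783362 to 13783731 (score 29.28), overlapped neither replicate list. The last peaks of those lists were at 13771093 to 13771370 in replicate 1 (score 75.91) and at 13782515 to 13782815 in replicate 2 (score 111.95).

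Replicate support on chromosome III was close to that on the genome as a whole. Of the 364 replicate 2 peaks, 288 or 79.1% shared 1 bp or more with a replicate 1 peak (Wilson 95% interval 74.7 to 83.0), beside 79.7% over all nuclear chromosomes. Of the 509 replicate 1 peaks, 242 or 47.5% met a replicate 2 peak (43.2 to 51.9), beside a genome-wide 44.0%. Of the 1013 series-wide peaks, 243 or 24.0% (21.5 to 26.7) were in both replicates, beside 21.8%. Another 272 were in replicate 1 alone (26.9%, beside 28.8%), 57 in replicate 2 alone (5.63%, beside 4.28%), and 441 in neither (43.5%, beside 45.2%). Nearly all replicate peaks of III were in the series-wide list, 504 of 509 in replicate 1 (99.1% genome-wide) and 347 of 364 in replicate 2 (93.3% genome-wide).

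Against the other 4 autosomes the support of III differed little. The share of series-wide peaks in both replicates was 2.23 percentage points higher on III, an interval of -0.610 to 5.22 (Newcombe 95%) that includes 0. Support in replicate 1 was 50.8% on III (50.6% on all nuclear chromosomes) and 50.5% on the others, a difference of 0.323 points (-3.11 to 3.76). Support in replicate 2 was 29.6% on III (26.1% on all) and 25.9% on the others, a difference of 3.68 points (0.628 to 6.86) that leaves out 0. Replicate 2 had more peaks for the length of III than any other chromosome, as given above. Within III, support in both replicates was 24.4% in the centre and 23.7% in the arms, a difference of 0.661 points (-4.67 to 6.22).

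Support was highest among peaks of high score. The peaks of III in each list were cut by rank of score into 5 classes of nearly equal size. Of the strongest series-wide class, 163 of 202 were in both replicates (80.7%, 74.7 to 85.5) and 201 in at least 1. In the second class 69 of 203 were in both (34.0%), and in the third, 9 of 202 (4.46%). The weakest class had 0 of 203 in both, which allows a share of up to 1.48% by the rule of 3 counts in the total (the Wilson upper limit is 1.86%), and 26 of 203 in at least 1 (12.8%, 8.89 to 18.1). In replicate 1 the share found in replicate 2 went from 87.1% (79.2 to 92.3) to 16.7% (10.7 to 25.1) over the classes.

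In replicate 2 the share found in replicate 1 did not fall all the way. It was 98.6% (92.5 to 99.8) in the strongest class, then 93.2% and 76.7%, 56.2% (44.8 to 67.0) in the fourth class and 71.2% (60.0 to 80.3) in the weakest. The intervals of the last classes overlap. The faintest replicate 2 peaks on III had scores of 50.05 to 55.28 and a median width of 106 bp. Of these 73 peaks, 52 were found in replicate 1. They are not separate sites throughout, because the 288 shared replicate 2 peaks of III met 242 replicate 1 peaks. Replicate 1 peaks were wider, and the part of width in these shares was not tested.

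**Figure D4:**
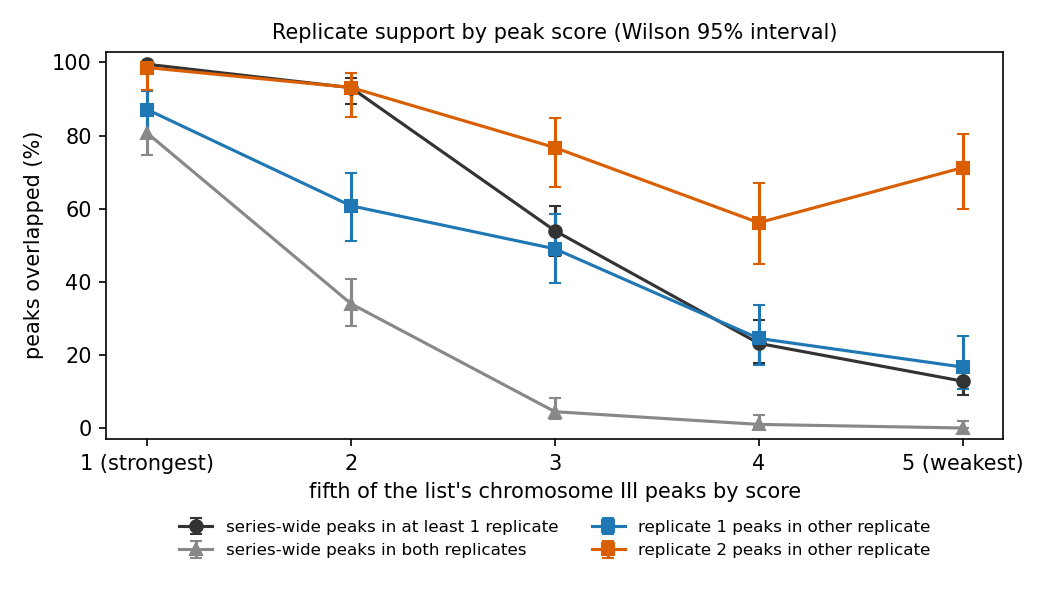
Percent of chromosome III peaks overlapped (y axis) in 5 classes of a list by score (x axis, strongest first), with Wilson 95% intervals: series-wide peaks in at least 1 and in both replicates, and each replicate's peaks in the other. Support of series-wide peaks in both replicates goes from 80.7% to 0 of 203, while the replicate 2 line stays between 56.2% and 98.6%. The other chromosomes were not classed in this way.

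Width went with support and with score. Of the 264 series-wide peaks of III under 200 bp, 0 were in both replicates, which allows a share of up to 1.14% by the same rule of 3 counts. The share was 60 of 367 from 200 to below 300 bp (16.3%), 110 of 270 below 500 bp (40.7%), 39 of 69 below 700 bp (56.5%) and 28 of 37 below 2000 bp (75.7%). On the other autosomes the shares in these classes, narrowest first, were 0.450%, 12.4%, 35.6%, 56.0% and 78.0%. The rise with width was thus not particular to III. A wide peak also meets an overlap of 1 bp more easily, and the part of this rule was not tested. Score and width went together within each list (Spearman's rho 0.677 over 1013 series-wide peaks, 0.792 over 509 in replicate 1 and 0.864 over 364 in replicate 2). Peaks in both replicates had a median width of 382 bp and a median score of 34.33. Those in replicate 1 alone had 318 bp and 12.98, those in replicate 2 alone 224 bp and 9.09, and those in neither 196 bp and 5.36.

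Replicate 2 peaks that replicate 1 lacked lay mostly in the right arm. There were 76 of them on III: 19 in the left arm, 17 in the centre and 40 in the right arm. The share of replicate 2 peaks found in replicate 1 was 84.3% (76.8 to 89.7) in the left arm, 86.3% (79.1 to 91.3) in the centre and 66.4% (57.5 to 74.2) in the right arm. The right arm minus the rest of the chromosome gave a difference of -18.9 points (Newcombe 95% interval -28.6 to -9.62). On the other 4 autosomes together the right arms differed from the rest by -3.25 points (-7.99 to 1.28). Whether III differs from them in this was not tested, and the split was chosen after the values had been seen. Replicate 1 peaks showed no such dip, with 52.7%, 45.4% and 45.5% found in replicate 2 from left to right.

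These 40 sites were faint, with medians of 63.5 in score and 119 bp in width, beside 87.05 and 167 bp for the 79 shared replicate 2 peaks of the right arm. Unshared replicate 2 peaks had median scores of 59.96 in the left arm and 62.99 in the centre. Of the 17 replicate 2 peaks of III that the series-wide list lacked, 13 were in the right arm. A run of 7 of the unshared peaks stood within 5523 bp, from 13586414 to 13591936, with scores of 50.48 to 87.82 and widths of 106 to 165 bp. Replicate 1 had no peak in that run, and the series-wide list had 3, with scores of 3.19 to 4.02. Without this run the difference was -14.8 points (-24.6 to -5.64).

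Where both replicates had a single peak at a site, most midpoints lay close together. Pairs were formed by overlap, and most replicate 2 peaks lay inside a wider partner. Such pairing by itself limits the distance between midpoints, although the largest was 663 bp. There were 212 such pairs on III. Their midpoints lay a median of 34.25 bp apart (25th to 75th percentile 14 to 63.25 bp), 138 pairs within 50 bp and 187 within 100 bp. The replicate 2 midpoint was to the right in 112 pairs and to the left in 100. Replicate 2 peaks were the narrower of the pair in 211 of 212 cases, with a median of 0.435 times the replicate 1 width, and 200 (94.3%) lay wholly inside their partner. The ranks by score were related (Spearman's rho 0.659 over the 212 pairs, which share chromosome and protocol), and likewise the widths (0.604).

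**Figure D5:**
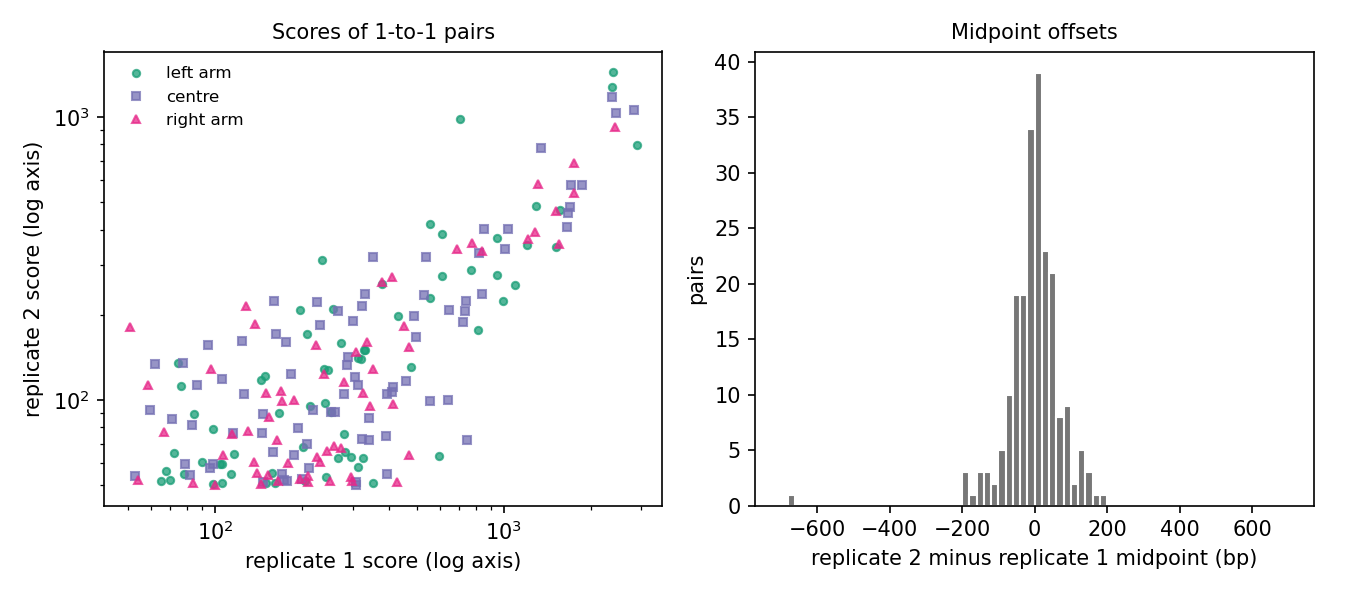
Left panel, scores of the 212 single pairs of replicate peaks on chromosome III (both axes logarithmic, each list's own score), coloured by part of the chromosome; right panel, number of pairs by distance from the replicate 1 midpoint to the replicate 2 midpoint in bp. Pairs from all 3 parts lie along the same cloud, and 187 of the 212 midpoints are within 100 bp of each other.

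The 15 strongest series-wide peaks of III were all present in both replicates. Of the strongest class of series-wide peaks on III 80.7% were, beside 21.8% of all nuclear series-wide peaks. The lists share sites, so this is not separate evidence, and the strongest peaks of other chromosomes were not compared in this. They fell in every part of the chromosome, 4 in the left arm, 6 in the centre and 5 in the right arm. They were 396 to 1145 bp wide, all above the 75th percentile of 362 bp for the chromosome. Of the 15, 11 stood more than 1000 bp from the nearest other series-wide peak, with a median distance of 5298 bp. In replicate 1 they ranked no lower than 40th of 509 on III, with scores of 947 to 2829. In replicate 2 they ranked no lower than 44th of 364, with scores of 340 to 1271.

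The leading peak, at 10758933 to 10759439 in the right arm, had a series-wide score of 231.9. Replicate 1 called 10758857 to 10759522 there with a score of 2428, and replicate 2 called 10758958 to 10759353 with 924.9. The second, at 3867122 to 3867760 in the left arm (231.1), scored 2368 in replicate 1 and 1271 in replicate 2, where it was second on the chromosome. These 2 sites thus stood among the first 10 of III in every list. So did the third peak, at 9053218 to 9054316 near the right edge of the centre (207.7), with 2829 in replicate 1 and 1061 in replicate 2. The replicate 2 peak there spanned 476 bp and lay inside a replicate 1 peak of 1158 bp. The seventh, at 4899603 to 4900092 (161.8), was sixth in replicate 1 (2449) and eighth in replicate 2 (1033).

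Other leading peaks ranked lower in the replicates than in the series-wide list. The fourth, 7854372 to 7854802 (202.5), was 13th in replicate 1 and 20th in replicate 2, and stood 25262 bp from its nearest neighbour. The fifth, 8446346 to 8447490 (199.99), was 18th and 19th, and the sixth, 8043697 to 8044094 (180.9), was 19th and 24th. The fourth to the sixth all lay in the centre. The eighth and ninth were at 10460976 to 10461441 (152.9) and 1618912 to 1619357 (150.6). The latter stood alone in the sparse part of the left arm, 14033 bp from the next peak. The remaining 6 began at 13070215 (139.8), 4475303 (135.7), 13643403 (122.2), 5018060 (120.1), 9765263 (115.2) and 2785808 (112.7).

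The 5 strongest peaks of each replicate all met a peak of the other, but several ranked far lower in the series-wide list. The strongest replicate 1 peak of III, at 1299697 to 1303166, reached the score of 3100, and the series-wide peak there ranked 51st (59.52). The same value of 3100 was the highest replicate 1 score on I, II and V, with 3122.9 on IV and 3146.4 on X. It may thus be a limit of the scale for many peaks. The lists name different callers and share no stated scale, and the cause of the differing ranks was not tested. The strongest of replicate 2, at 3897055 to 3897744 (1440), corresponded to the 55th series-wide peak (57.77). Of the 50 strongest replicate 1 peaks, 37 (74%) overlapped one of the 50 strongest of replicate 2, and of the 50 strongest in replicate 2, 41 (82%) overlapped one of replicate 1's. The 50 strongest series-wide peaks overlapped 33 (66%) and 32 (64%) of those sets. The sources used here do not say whether the series-wide list rests on the reads of these replicates, and it is not counted as a measurement of its own.

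A few strong peaks were found in a single replicate. The strongest replicate 2 peak absent from replicate 1 was at 8862198 to 8863857 in the centre. It was 1660 bp wide, scored 426.3 and ranked 29th of 364 on the chromosome. The series-wide list had 2 peaks there, the stronger at 29.02, and replicate 1 had none. The next 4 such peaks were far weaker, with scores of 117.9 to 129.5 and widths of 104 to 218 bp. In replicate 1 the strongest absent from replicate 2 were at 8658103 to 8658757 (771.7), 7729256 to 7730104 (769.0) and 13292477 to 13293343 (707.1), 49th, 50th and 57th of 509. Among series-wide peaks in neither list, the end peak at 13783362 had the highest score, and the next 4 scored 13.72 to 15.21.

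Broad peaks were few in the series-wide list and in replicate 2. On III, 43 series-wide peaks (4.24%) were 700 bp or wider, beside 5.03% on the other autosomes. Of the 43, 34 were in both replicates, a share close to the 160 of 205 on the other autosomes. The 43 numbered 14, 14 and 15 from left to right. Replicate 1 had 68 peaks of that width (13.4%), with 25, 26 and 17 from left to right, and replicate 2 had 14 (3.85%), with 8, 4 and 2. The replicate lists thus had fewest in the right arm, and the series-wide list did not. The 6 series-wide peaks of III of 2000 bp or more were all in both replicates, beside 22 of 28 on the other autosomes. The widest on III, 2497064 to 2501906 in the left arm, spanned 4843 bp with a series-wide score of 27.55, which ranks 190th on the chromosome. Replicate 1 gave that region a score of 2463, which ranks 5 on III.

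The widest regions were broken up in replicate 2. The region at 2496957 to 2501946 was a single replicate 1 peak and held 6 replicate 2 peaks, which covered 76.2% of it. The one at 1299697 to 1303166 held 4, which covered 96.6%. At 3334322 to 3337075 there were 5 (73.6%), and at 5353047 to 5358521, the widest replicate 1 peak of III, 4 (43.1%). These were the 4 replicate 1 peaks with 4 or more replicate 2 peaks inside, and 3 of them lay in the left arm. Elsewhere on III, 212 replicate 1 peaks had 1 replicate 2 peak, 21 had 2 and 5 had 3, so counts of replicate 2 peaks exceed counts of sites where broad regions lie. The second widest series-wide peak, 7444272 to 7448123, met 2 peaks in each replicate list.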

How the data were processed

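Peak lists of 2 CBP-1 ChIP samples and 1 series-wide list were used. The sixth column holds the score that the authors deposited for each peak, on a scale that these sources do not state. The replicate lists name MACS as caller and the series-wide one names MACS v2, and coordinates are WormBase WS220, per the file headers and source column. BWA and ce10 were used, per the submitters' processing notes. The sources used here give neither the threshold and control of the calls nor any pooling of reads.

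Peaks were placed by midpoint, mitochondrial peaks were left out, and an overlap of 1 bp counted as shared. Densities were compared by quasi-Poisson regression of counts in 250 kb bins, cut at the borders of the 3 parts, with Benjamini-Hochberg adjustment. Neighbouring bins are not independent, so these p-values may be too small. Shares carry Wilson intervals and their differences Newcombe intervals. Peaks were named by rule: the 15 strongest in both replicates, the 5 strongest in neither or in a single replicate, the 5 widest, the 5 fullest and emptiest bins, the leading stretches, gaps and ends. Other regions were picked with their values in view. The chromosome and the comparisons were chosen with earlier results of these data known. Sequences and genes under the peaks were not analysed here. Procedures were tested on simulated data. Python 3.11.15, numpy 2.4.6, scipy 1.17.1, pandas 2.3.3, statsmodels 0.14.6 and matplotlib 3.10.9 were used.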

Additional observations from a re-analysis of the deposited data

How the results depend on the processing

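The density of III over the other autosomes kept its direction under all 8 alternatives (1.13 to 1.40). Under the 7 with a test it passed an unadjusted threshold of 0.05, whereas the main call was adjusted over 16 tests. It was lowest against I, II and IV alone (1.13, interval 1.01 to 1.27, n = 257 bins, unadjusted p = 0.0346). That setting was chosen after the data were seen, and its p-value might not pass once adjusted. The ratio of centre to arms (n = 58 bins) passed an unadjusted threshold of 0.05 above the median score (1.25, p = 0.0409) and with the centre from 25% to 75% (1.37, p = 0.000657). By the exact binomial test of single peaks p was 0.00932 for the ratio of 1.19, where the quasi-Poisson regression over bins gave an unadjusted p of 0.0828. The exact test, also among the 7 above, counts neighbouring peaks as independent, so its p-values may be too small. Taken from a single replicate list, the ratio of centre to arms was 1.03 without replicate 1 and 1.35 without replicate 2 (n = 58 bins, unadjusted p = 0.0201). The ratio of right to left arm passed with the centre from 25% to 75% (1.43, n = 29 bins, p = 0.00852). It turned to 0.911 among peaks in both replicates, and was 0.983 without replicate 1 and 1.03 without replicate 2. For these shifts the cause was not tested.

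With peaks covering 50% of each other, 11.4% of series-wide peaks were in both replicates, 21.7% of replicate 2 peaks in replicate 1 and 15.5% of replicate 1 peaks in replicate 2; above each list's median score these were 44.3%, 91.3% and 69.6%. The reciprocal rule by construction fails pairs of unlike width. The difference in support between centre and arms turned to -1.78 points above the median score. Dense stretches numbered 7, and 4, 17 and 1 with joins of 1000 bp, of 5000 bp and above the median score. Among peaks in both replicates the median width was 382 bp and the median score 34.33. Shares between the replicates could not be computed with a replicate left out. No paired analysis was possible because a single group, the ChIP samples, entered the comparisons. With depth unknown, absence from a list does not show absence of CBP-1.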
